A study of Homo sapiens with 6 samples.

Results

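A set of 10 genes of epithelial defence was followed in ME180, an epithelial cell line from a human cervical cancer. Cells had received for 48 h either a control small interfering RNA (siControl) or an siRNA against the kinase SGK1 (siSGK1). The genes were taken by name: LCN2, SLPI, PI3, DEFB1, DEFB4A, RNASE7, CAMP, LYZ, WFDC2 and ELF3, which are 10 of the 58302 genes of the table. Each group held 3 libraries of polyA RNA, numbered 2, 3 and 4 and described as biological repeats of a single cell line. Both groups were transfected, no untransfected cells were included, and the siRNA sequences were not part of the material used here.

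Epithelia that face microbes secrete small cationic peptides and enzymes that damage or starve bacteria, among them the beta-defensins, cathelicidin, ribonucleases, lysozyme and the iron-chelator-binding lipocalin 2. They also secrete inhibitors that shield the tissue from the serine proteases of neutrophils, of which SLPI and elafin (the product of PI3) carry the disulphide-rich WFDC fold. In the female lower genital tract and in the epidermis many of these genes are active in differentiating cells or are induced by interleukin-17, interleukin-1 and Toll-like receptor signals through NF-kappaB, IkappaB-zeta, C/EBP factors and the epithelial ETS factor ELF3.

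The libraries held 27262794 to 27874948 reads in siControl and 28405647 to 35242643 in siSGK1, recovered as whole reads from the deposited values. The mitochondrial share was 4.25% ± 0.13 (SD, n = 3) in control libraries against 3.50% ± 0.14 after siSGK1. Levels are given as deposited FPKM (fragments scaled to gene length and to a library size). The library size implied by the deposited values was below the recovered reads in each siControl library (25942608 to 26959810). It was above them in each siSGK1 library (29407193 to 36632988). The source of this difference was not tested. Comparisons of level between genes rest on the gene lengths of the table. The targeted gene SGK1 measured 3.91, 4.27 and 4.17 FPKM in siControl replicates 2, 3 and 4 and 1.58, 1.70 and 1.81 FPKM in siSGK1, and its log2 change was −1.07 (SE 0.07, limma adjusted p = 1.88e-05). All 9 epithelial markers examined (KRT5, KRT14, KRT8, KRT18, KRT19, EPCAM, CDH1, TP63 and DSP) were expressed. Their summed level was 8457 to 8921 FPKM in siControl and 5484 to 6393 FPKM in siSGK1, and 5 of the 9 fell with the deposited scaling. Beside this, 22.7% of all tested genes were called lower, and 61.2% of those with a mean of at least 100 FPKM. KRT5, KRT14, KRT8, KRT18 and KRT19 were above that level. KRT5, the largest part of that sum, and KRT19 lost their calls without the level filter (adjusted p = 0.095 and 0.092), and KRT5 had a log2 change of −0.04 (adjusted p = 0.36) with quantile normalization. In such bulk RNA, fewer expressing cells and less RNA per cell cannot be told apart.

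Most of the defence genes that could be tested were lower after siSGK1. Of the 10 genes, 7 had a mean level of at least 1 FPKM and were tested. PI3, SLPI, DEFB1, WFDC2, LCN2 and ELF3 fell, RNASE7 did not pass the test and none rose. A gene was called where the adjusted p of the fit over all 11945 tested genes was below 0.05. In that fit 22.7% of all genes were called lower and 17.9% higher. The median log2 change (siSGK1 minus siControl, on the log2(FPKM + 0.5) scale) was −0.90 over the 7 tested genes and −0.006 over all tested genes. DEFB4A, CAMP and LYZ lay below the level filter. The fall of ELF3 was small and lost its call under most other settings, whereas the other 5 falls were called under each setting in which the gene could be tested.

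The direction of a small change depended on how libraries were scaled. With the deposited scaling 44.2% of all called genes were higher. That share was 73.6% with scaling to total reads and 82.8% with TPM scaling, in which all levels of a library sum to the same total. The median log2 change of all genes then lay at 0.12 and 0.18. The 5 larger falls were seen with each of these scalings.

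**Figure D1:**
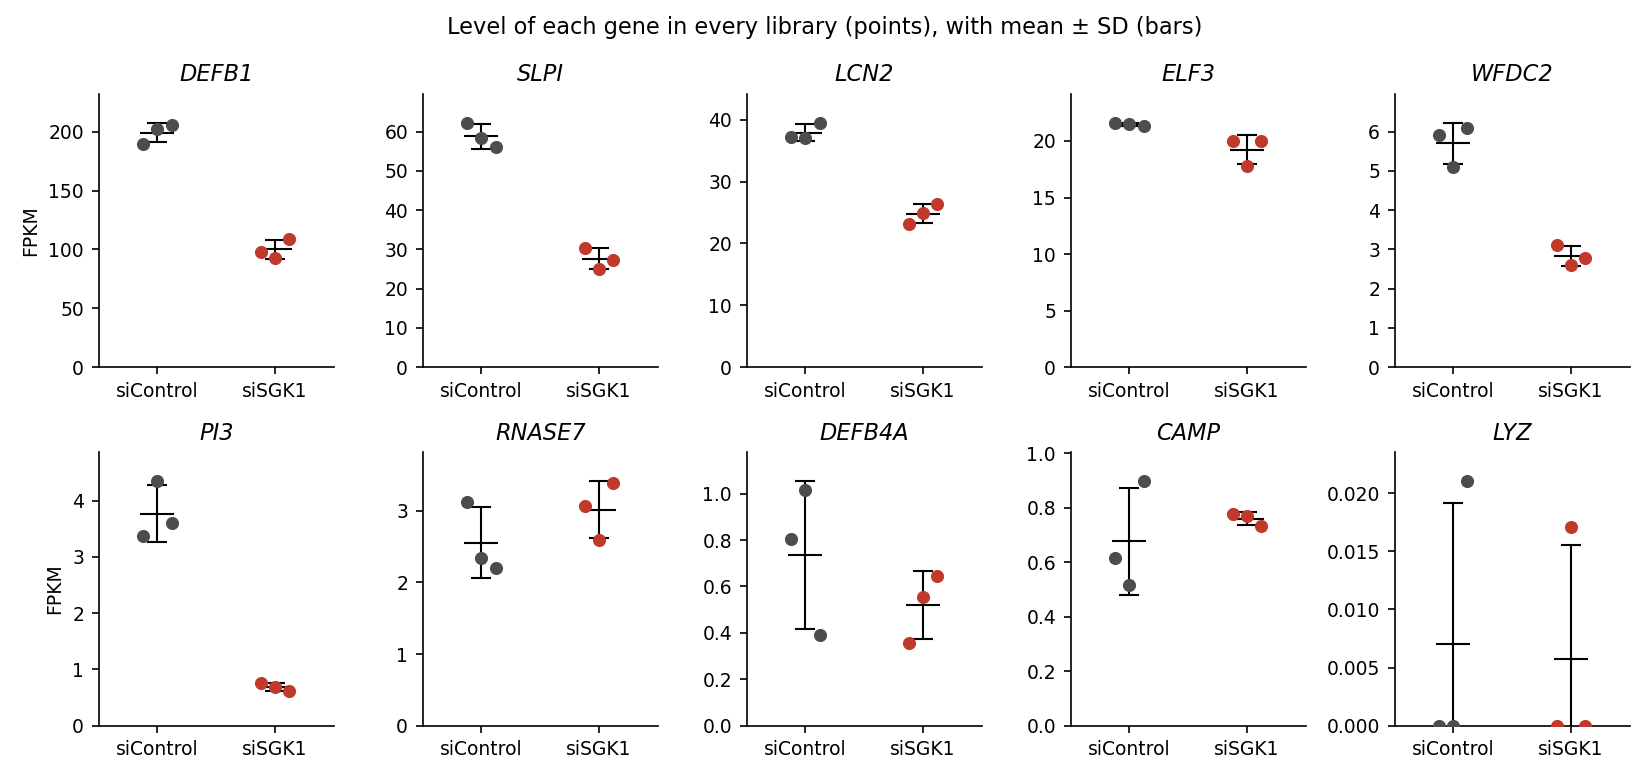
FPKM (vertical axes, each from 0) of the 10 genes in the 3 siControl (grey) and 3 siSGK1 (red) libraries, ordered by siControl level; points are libraries, bars are mean ± SD (n = 3), and the bars of LYZ are cut at 0. The siControl and siSGK1 points do not overlap for DEFB1, SLPI, LCN2, ELF3, WFDC2 and PI3, and they overlap for RNASE7, DEFB4A, CAMP and LYZ.

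The order of levels in siControl was led by DEFB1 at 199 ± 8.3 FPKM (SD, n = 3, as for all means below), followed by SLPI, LCN2, ELF3, WFDC2, PI3 and RNASE7, with each gene's libraries all above those of the next. DEFB4A and CAMP overlapped in level, and LYZ was last. This order rests on the gene lengths of the table, which are 7191 bases for ELF3 and 478 for DEFB1. By reads ELF3 was ahead, with 4019 to 4136 per siControl library against 2382 to 2652 for DEFB1. By mean level in siSGK1 the first 4 places were unchanged, RNASE7 stood in the fifth place and PI3 in the eighth. There the libraries of SLPI overlapped those of LCN2, those of RNASE7 overlapped WFDC2, and those of PI3 overlapped both CAMP and DEFB4A, so the order within these groups was not resolved. The summed level of the 10 genes was 325 to 336 FPKM in siControl and 168 to 191 FPKM in siSGK1. DEFB1 supplied 58.5% to 61.3% of that sum in siControl and 54.6% to 57.2% in siSGK1.

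Promoter sequence is shown for 3 of the genes, LCN2 and WFDC2, which fell, and RNASE7, which did not pass the test, so that the letters around their starts can be read beside their values. Each run covers 250 bases before to 50 bases after the RefSeq start (GRCh38.p14, plus strand), at chr9:128149203-128149502 for LCN2, chr20:45469503-45469802 for WFDC2 and chr14:21042112-21042411 for RNASE7. RefSeq promoters were found for 5 of the 10 genes, the 3 shown and CAMP and ELF3. The RefSeq starts differ from the gene starts of the table, and distances below are from the RefSeq starts. The LCN2 window lies wholly inside the gene of the table, which begins at 128149071. The ELF3 window, from 202010337, also lies inside its gene, which begins at 202007945. Capitals mark matches, on either strand, to 4 short motifs: the ETS cores AGGAAG and CGGAAG, GGGNNTTCC for NF-kappaB and TTGCNNAA for C/EBP.
LCN2: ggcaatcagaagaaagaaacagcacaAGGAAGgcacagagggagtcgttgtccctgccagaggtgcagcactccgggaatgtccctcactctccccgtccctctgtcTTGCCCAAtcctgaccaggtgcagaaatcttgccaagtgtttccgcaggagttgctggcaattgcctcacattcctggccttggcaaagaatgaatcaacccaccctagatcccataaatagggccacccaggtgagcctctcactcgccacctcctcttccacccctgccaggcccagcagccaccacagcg
WFDC2: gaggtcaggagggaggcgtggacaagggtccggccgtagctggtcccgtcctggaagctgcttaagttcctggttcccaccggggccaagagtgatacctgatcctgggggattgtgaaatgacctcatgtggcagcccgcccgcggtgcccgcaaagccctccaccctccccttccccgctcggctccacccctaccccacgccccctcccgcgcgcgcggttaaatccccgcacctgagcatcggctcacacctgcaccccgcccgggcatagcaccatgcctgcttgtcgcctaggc
RNASE7: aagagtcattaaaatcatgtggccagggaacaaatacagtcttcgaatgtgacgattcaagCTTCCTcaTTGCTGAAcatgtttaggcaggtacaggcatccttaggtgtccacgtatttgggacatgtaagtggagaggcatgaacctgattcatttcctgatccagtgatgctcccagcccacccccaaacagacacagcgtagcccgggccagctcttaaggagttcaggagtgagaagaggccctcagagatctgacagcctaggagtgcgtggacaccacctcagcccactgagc
The LCN2 window held 1 AGGAAG, 224 bases upstream of the start, and 1 TTGCNNAA, 143 bases upstream. The RNASE7 window also held both, at 189 and 181 bases upstream, the first on the opposite strand. The WFDC2 window matched none of the 4 motifs. Of the windows not printed, CAMP held 3 AGGAAG and no other match. ELF3 held 1 GGGNNTTCC, 88 bases upstream on the opposite strand, and no other match. Among 35116 promoters of this length, 33.6% held AGGAAG, 19.5% CGGAAG, 6.6% GGGNNTTCC and 10.5% TTGCNNAA. LCN2 and RNASE7 thus held the same 2 of the 4 motifs. These are matches of letters and not measured binding. Only exact matches to these 4 patterns were marked, so longer or variant sites of the same factors stay in lower case. A window without a match may therefore still hold such sites.

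Among the antiproteases, PI3 fell furthest. PI3 (ENSG00000124102, chromosome 20, 45174876 to 45176544, plus strand) encodes elafin, an inhibitor of neutrophil elastase and proteinase 3 that is cross-linked into the epidermal cornified layer. It measured 3.37, 4.34 and 3.60 FPKM in siControl replicates 2, 3 and 4 and 0.77, 0.68 and 0.62 FPKM in siSGK1. The lowest siControl library was thus well above the highest siSGK1 library. The mean fell 5.49-fold, from 3.77 ± 0.51 to 0.69 ± 0.08 FPKM, with a log2 change of −1.84 (95% interval −2.07 to −1.61, adjusted p = 1.00e-05). It rested on 51, 65 and 56 reads in siControl and on 13 reads in each siSGK1 library, and the gene passed the level filter only through its siControl level. Of the 11945 tested genes 5, PI3 included, had a log2 change at or below that of PI3.

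SLPI, the secretory leukocyte peptidase inhibitor, blocks neutrophil elastase and cathepsin G and is itself antimicrobial. Its gene (ENSG00000124107, chromosome 20, 45252239 to 45254564, minus strand) measured 62.2, 58.3 and 55.9 FPKM in siControl and 30.4, 25.0 and 27.4 FPKM in siSGK1. Every siSGK1 library was below every siControl library. The mean fell 2.13-fold, from 58.8 ± 3.2 to 27.6 ± 2.7 FPKM (log2 change −1.08, 95% interval −1.25 to −0.92, adjusted p = 2.35e-05). SLPI had 899 to 973 reads per siControl library and 494 to 598 per siSGK1 library.

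WFDC2, which encodes the WFDC-domain protein HE4, a serum marker of ovarian cancer, was a low but measurable transcript (ENSG00000101443, chromosome 20, 45469706 to 45481532, plus strand). It measured 5.90, 5.10 and 6.09 FPKM in siControl and 3.10, 2.60 and 2.79 FPKM in siSGK1, again without overlap. The mean fell 2.02-fold, from 5.70 ± 0.52 to 2.83 ± 0.25 FPKM (log2 change −0.90, 95% interval −1.08 to −0.71, adjusted p = 9.69e-05). The window around its RefSeq start is the one printed above without a motif match.

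These 3 antiprotease genes lie within 307 kb of each other on chromosome 20, in a cluster of WFDC and Kunitz-type inhibitor genes. This stretch was examined after the values of its members were known. It was taken from WFDC5 to WFDC3 (45109452 to 45791932) and held 45 genes of the table, 27 of them protein-coding and 16 of the inhibitor type. Of those 16, 4 were tested and all 4 fell: PI3, SLPI, WFDC2 and WFDC5. Beside this, 22.7% of all tested genes were called lower. These 4 genes are 577 to 1382 bases long, and of tested protein-coding genes of at most 1598 bases 41.1% were called lower. WFDC5 fell from 5.63 ± 0.88 to 2.84 ± 0.55 FPKM (log2 change −0.88, adjusted p = 0.00125). Of the other 12, 7 had no read in any library and the rest at most 155 reads over all 6 libraries.

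Of the other genes in this stretch 3 were tested, and with the deposited scaling 1 rose and none fell, beside 17.9% higher and 22.7% lower over all tested genes. SDC4, a cell-surface proteoglycan whose gene lies between SLPI and WFDC2, rose from 75.9 ± 2.1 to 94.4 ± 3.4 FPKM (log2 change 0.31, adjusted p = 9.26e-04). SYS1, a Golgi trafficking protein, measured 3.30 ± 0.17 and 3.59 ± 0.13 FPKM (log2 change 0.10, adjusted p = 0.20), and PIGT, a subunit of the GPI transamidase, 4.26 ± 0.25 and 4.03 ± 0.30 FPKM (log2 change −0.07, adjusted p = 0.44). SDC4, SYS1 and PIGT are longer than the tested inhibitor genes, at 2613, 6117 and 19670 bases. The difference between the inhibitor genes and their neighbours was not tested as such.

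**Figure D2:**
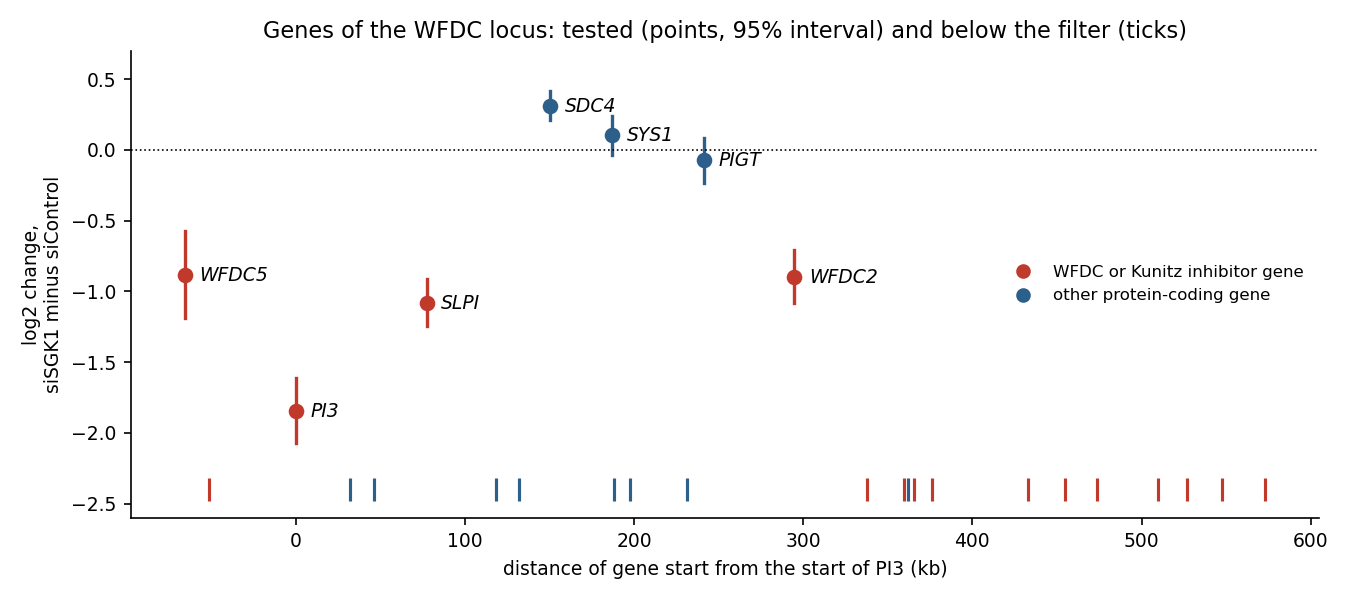
Log2 change (vertical axis, siSGK1 minus siControl, with 95% intervals) of the 7 tested genes of the inhibitor cluster against the distance of each gene's start from that of PI3 in kb (horizontal axis); inhibitor genes are red, other protein-coding genes blue, and ticks at the bottom mark protein-coding genes below the level filter. WFDC5, PI3, SLPI and WFDC2 lie at −0.88 or lower, and SDC4, SYS1 and PIGT lie between −0.07 and 0.31.

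Among the antimicrobial genes of the 10, DEFB1 had the highest level and fell. DEFB1 encodes beta-defensin 1, a peptide made constitutively by many epithelia (ENSG00000164825, chromosome 8, 6870575 to 6878022, minus strand). It measured 190, 202 and 206 FPKM in siControl and 98.0, 93.0 and 109 FPKM in siSGK1. Every siSGK1 library was thus far below every siControl library. The mean fell 1.99-fold, from 199 ± 8.3 to 100.1 ± 8.3 FPKM (log2 change −0.99, 95% interval −1.14 to −0.85, adjusted p = 2.02e-05). Abundant genes tended to be lower in this comparison: of 469 tested genes with a mean of at least 100 FPKM, 61.2% were called lower, with a median log2 change of −0.23. After quantile normalization, which gives all libraries the same distribution of levels, the log2 change of DEFB1 was −0.85 (adjusted p = 1.68e-05).

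LCN2 encodes lipocalin 2, which withholds iron from bacteria by binding their siderophores (ENSG00000148346, chromosome 9, 128149071 to 128153455, plus strand). It measured 37.2, 37.0 and 39.5 FPKM in siControl and 23.2, 24.8 and 26.3 FPKM in siSGK1. The groups did not overlap, and the spread within each was small. The mean fell 1.53-fold, from 37.9 ± 1.4 to 24.8 ± 1.5 FPKM (log2 change −0.60, 95% interval −0.73 to −0.48, adjusted p = 9.88e-05), on 1535 to 1701 reads per siControl library and 1090 to 1539 per siSGK1 library.

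RNASE7 was not lower. RNASE7 encodes an antimicrobial ribonuclease of skin and the urinary tract (ENSG00000165799, chromosome 14, 21042226 to 21044234, plus strand). It measured 3.13, 2.34 and 2.20 FPKM in siControl and 3.06, 2.60 and 3.39 FPKM in siSGK1, with siControl replicate 2 above 2 of the siSGK1 libraries. Its log2 change was 0.21, with a 95% interval from −0.08 to 0.49 (adjusted p = 0.21), so the interval reached neither the falls of the 5 genes above nor a doubling. Without siControl replicate 2 its log2 change was 0.34 and it was called higher (adjusted p = 0.038), as it was with total-read scaling (0.33, adjusted p = 0.047) and TPM scaling (0.38, adjusted p = 0.023).

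The remaining 3 antimicrobial genes were near the limit of detection. DEFB4A encodes beta-defensin 2, the inducible defensin of inflamed epithelium (chromosome 8, 7894629 to 7896711). It had 8, 10 and 4 reads in siControl and 4, 7 and 9 in siSGK1, that is 0.80, 1.01 and 0.39 against 0.36, 0.56 and 0.65 FPKM. Its near-identical copy DEFB4B had no read in any library, so the value of DEFB4A depends on how reads that fit both were treated, which the material used here does not state. CAMP, the precursor of the cathelicidin peptide LL-37 (chromosome 3, 48223347 to 48225491), had 12, 10 and 18 reads against 17, 19 and 20, or 0.61, 0.52 and 0.90 against 0.78, 0.77 and 0.73 FPKM. LYZ, lysozyme (chromosome 12, 69348341 to 69354234), had 1 read in siControl replicate 4 and 1 in siSGK1 replicate 3, and none in the other libraries. With the filter removed, the log2 change of DEFB4A was −0.25 (95% interval −0.81 to 0.30, adjusted p = 0.57) and that of CAMP was 0.11 (95% interval −0.22 to 0.45, adjusted p = 0.67). Differences of these 3 genes were not detectable at this depth.

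**Figure D3:**
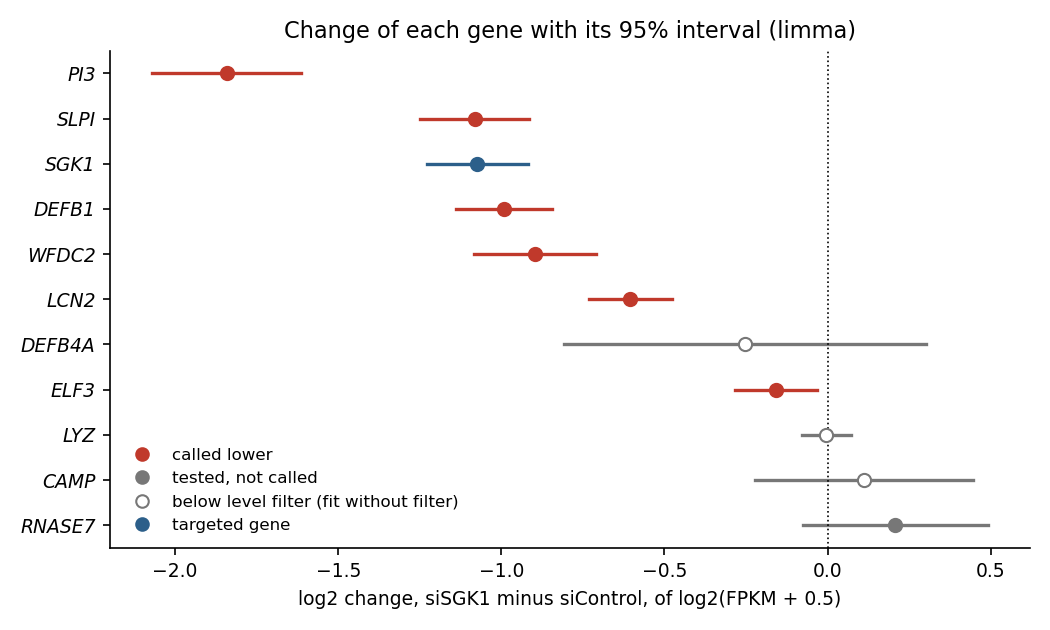
Log2 change of log2(FPKM + 0.5), siSGK1 minus siControl (horizontal axis), with 95% limma intervals for the 10 genes and SGK1; red marks genes called lower, grey genes not called, open circles genes below the level filter (fitted without it) and blue the targeted gene. PI3 has the lowest value at −1.84, DEFB1, SLPI and WFDC2 lie between −1.08 and −0.90, and the intervals of RNASE7, CAMP, LYZ and DEFB4A include 0.

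ELF3, the epithelial ETS transcription factor that is listed among regulators of such genes, changed little. Its gene (ENSG00000163435, chromosome 1, 202007945 to 202017188, plus strand) measured 21.56, 21.54 and 21.33 FPKM in siControl and 19.99, 17.76 and 19.98 FPKM in siSGK1. All siSGK1 libraries were below all siControl libraries, and replicate 3 was the lowest of them. The mean went from 21.5 ± 0.1 to 19.2 ± 1.3 FPKM (log2 change −0.16, 95% interval −0.28 to −0.03), and the adjusted p was 0.0494, just under the threshold. The call was lost in 12 of 16 other settings, including each of the 6 in which 1 library was left out (adjusted p = 0.051 to 0.13) and the fit blocked on replicate number (adjusted p = 0.070). With TPM scaling the log2 change was 0.04. Exons of ELF3 overlap those of ELF3-AS1 on the other strand, which measured 2.40 ± 0.51 FPKM in siControl and 2.23 ± 0.28 in siSGK1.

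The 5 genes with the larger falls are short, so shares called lower are given by gene length, with no test of their difference. PI3, SLPI, DEFB1, WFDC2 and LCN2 have gene lengths of 577, 596, 478, 1382 and 1598 bases in the table. Of 530 tested protein-coding genes of at most 1598 bases, 41.1% were called lower, with a median log2 change of −0.13. Of the 9864 longer ones 22.9% were, with a median of −0.006. When the trend with gene length was removed from each library, a setting chosen after seeing the data, the log2 changes were −1.79 for PI3, −0.93 for DEFB1 and −0.56 for LCN2, and 6 of the 10 genes were still called lower. Of all tested genes, 0.963% had a log2 change at or below that of DEFB1, 0.678% at or below that of SLPI, 1.28% at or below that of WFDC2 and 3.69% at or below that of LCN2. The groups did not overlap for 6 of the 7 tested genes, with siSGK1 lower. That was so for 28.8% of all tested genes. Each of these 6 gave p = 0.1 in the exact two-sided permutation test, the smallest value that 3 against 3 libraries allow.

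**Figure D4:**
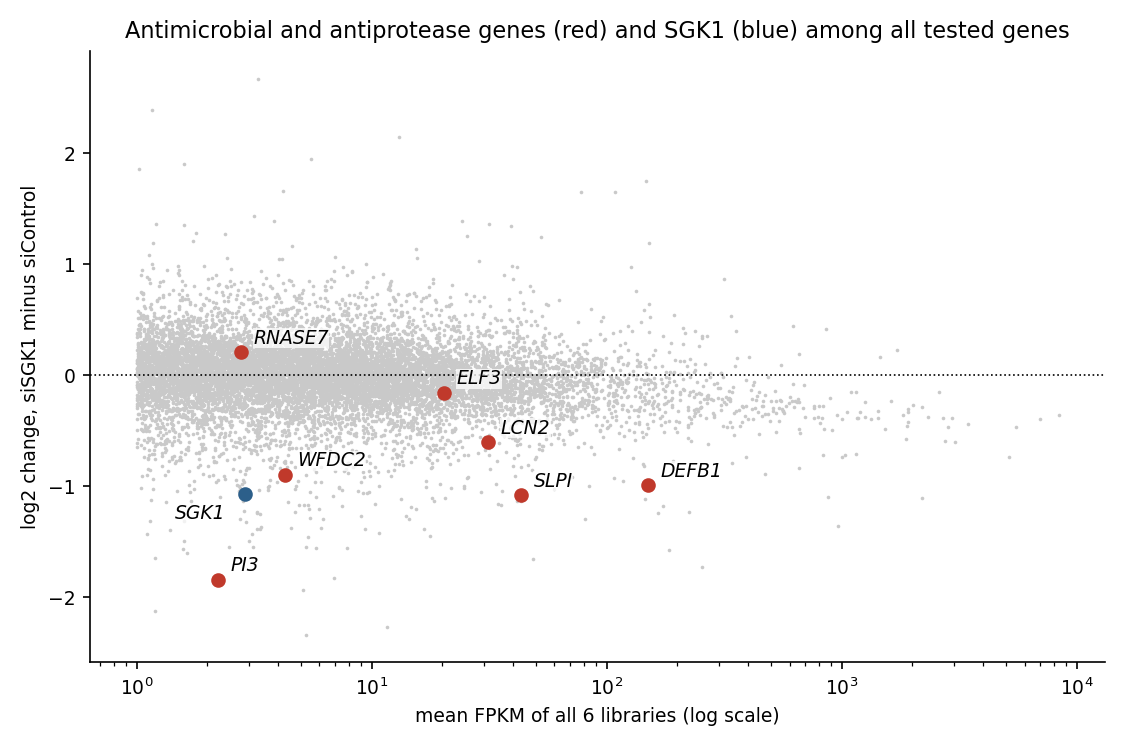
Log2 change (vertical axis, siSGK1 minus siControl) of all 11945 tested genes (light grey points) against their mean FPKM over the 6 libraries (horizontal axis, log scale), with the 7 tested defence genes in red and SGK1 in blue. PI3 (−1.84), SLPI (−1.08), DEFB1 (−0.99), WFDC2 (−0.90) and LCN2 (−0.60) lie below most genes of similar level, and ELF3 and RNASE7 lie within the cloud.

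Other genes of mucosal and skin defence included several that fell. Of 41 further antimicrobial genes 11 were tested, 7 fell and 2 rose, with a median log2 change of −0.64, beside 22.7% lower, 17.9% higher and a median of −0.006 over all tested genes. The 7 include PGLYRP3, named after its values were seen, which passed the level filter only through its siControl level (1.85 ± 0.43 against 0.44 ± 0.12 FPKM). It kept its call without the filter (adjusted p = 0.0069). S100A7 (psoriasin), S100A8 (a subunit of the metal-binding protein calprotectin), S100A12 and SPRR2A, a cornified envelope protein with antibacterial activity, had the smallest p. S100A8 fell from 1187 ± 35 to 557 ± 64 FPKM (log2 change −1.10, adjusted p = 2.83e-05), and S100A7 had a log2 change of −1.38 (adjusted p = 2.89e-06). S100A8 is among the genes with a mean of at least 100 FPKM, of which 61.2% were called lower. With quantile normalization the log2 change of S100A8 was −0.73 (adjusted p = 6.9e-05). SPRR2A fell from 15.8 ± 0.8 to 9.48 ± 0.58 FPKM and S100A12 from 18.2 ± 0.9 to 11.5 ± 0.8 FPKM. The 2 that rose, named after their values were seen, were CCL20, a chemokine with antimicrobial activity, from 0.64 ± 0.16 to 1.36 ± 0.39 FPKM, and ADM (adrenomedullin), from 55.9 ± 2.2 to 72.2 ± 2.4 FPKM. CCL20 passed the level filter only through its siSGK1 level and lost its call without the filter (adjusted p = 0.076). The count called higher was also 1 without siSGK1 replicate 2 and without siSGK1 replicate 4. Of the 41 genes 11, DEFB4B among them, had no read in any library.

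Of 21 further antiprotease genes in the table only 4 were tested. WFDC5 (above) fell, as did SPINT1, a Kunitz inhibitor of membrane serine proteases, from 66.0 ± 4.5 to 55.3 ± 3.6 FPKM (log2 change −0.25, adjusted p = 0.014). Its adjusted p was 0.068 without the level filter, 0.099 when libraries were scaled to total reads and 0.41 with TPM, so the call was lost in each. Exons of SPINT1 overlap those of SPINT1-AS1 on the other strand, at 16.04 FPKM. SPINT2 measured 118 ± 1.9 and 119 ± 5.1 FPKM (log2 change 0.005, adjusted p = 0.94) and ANOS1 5.49 ± 0.38 and 4.99 ± 0.23 FPKM (log2 change −0.12, adjusted p = 0.15), and the sign of both turned under other settings. SPINT2 was called higher with total-read scaling (log2 change 0.14), TPM scaling (0.21) and quantile normalization (0.14).

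Among regulators of these genes CEBPA, CEBPB and IL1RN fell and NFKBIZ rose. Of 39 listed regulators 31 were tested. Of these, 11 fell, 2 rose and 18 were not called, with a median log2 change of −0.05. Over all genes 7093 of 11945 were not called, and 22.7% were lower and 17.9% higher. Without siSGK1 replicate 4 the regulators called lower numbered 7 and those called higher 3. CEBPA, a C/EBP factor of differentiating keratinocytes, measured 10.3, 9.79 and 9.42 FPKM in siControl and 4.39, 4.54 and 5.001 FPKM in siSGK1, and its log2 change was −1.005 (SE 0.06, adjusted p = 1.54e-05). CEBPB fell from 78.5 ± 6.2 to 52.2 ± 3.2 FPKM (log2 change −0.58, adjusted p = 3.05e-04), and IL1RN, the interleukin-1 receptor antagonist, from 115 ± 3.1 to 78.0 ± 2.2 FPKM (log2 change −0.56, adjusted p = 4.16e-05).

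NFKBIZ rose. It encodes IkappaB-zeta, a nuclear cofactor of NF-kappaB required for induction of LCN2 and DEFB4A by interleukin-17 and interleukin-1. It measured 2.54, 2.26 and 2.23 FPKM in siControl and 4.14, 5.17 and 4.33 FPKM in siSGK1, with no overlap. The mean rose 1.94-fold (log2 change 0.82, 95% interval 0.63 to 1.02, adjusted p = 1.93e-04), while LCN2 fell. With 4 to 10 reads of DEFB4A in each library, no difference was detectable for that gene. STAT3, named after its values were seen, was the other regulator that rose, from 26.0 ± 1.3 to 33.4 ± 0.7 FPKM (log2 change 0.36, adjusted p = 6.76e-04). The NF-kappaB subunit genes NFKB1, NFKB2, RELA and RELB, also named after their values were seen, had log2 changes from −0.15 to 0.13 and were not called with the deposited scaling. With total-read scaling 8 regulators were called higher and 7 lower, and with TPM scaling 15 and 5. Of all 11945 tested genes 4309 were higher and 1546 lower with total-read scaling, and 5644 and 1171 with TPM scaling.

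The proteases that PI3 and SLPI act on in inflamed tissue were absent or nearly so: ELANE (neutrophil elastase) and CTSG (cathepsin G) had no read, and PRTN3 (proteinase 3) had 6 reads over the 6 libraries. Of 16 listed proteases, binding partners and receptors 8 were tested, 6 fell and 1 rose, with a median log2 change of −0.28. Beside this, 22.7% of all tested genes were lower and 17.9% higher, with a median of −0.006. When libraries were scaled to total reads 4 of the 8 were called lower, and 3 with TPM, where RNH1 lost its call (adjusted p = 0.057). Of all 11945 tested genes 1546 were called lower with total-read scaling and 1171 with TPM. KLK5, a skin kallikrein that processes cathelicidin, fell from 12.3 ± 0.9 to 7.21 ± 0.40 FPKM (log2 change −0.73, adjusted p = 8.94e-05). SLC22A17, a proposed receptor of lipocalin 2, fell from 3.91 ± 0.25 to 2.26 ± 0.08 FPKM (log2 change −0.68, adjusted p = 1.27e-04). RNH1, the cytosolic ribonuclease inhibitor that binds RNASE7, fell from 37.0 ± 0.7 to 29.8 ± 2.2 FPKM (log2 change −0.31, adjusted p = 0.0034), and PLSCR1, a phospholipid scramblase that binds SLPI, rose from 13.9 ± 1.5 to 20.6 ± 1.1 FPKM (log2 change 0.56, adjusted p = 7.63e-04).

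**Figure D5:**
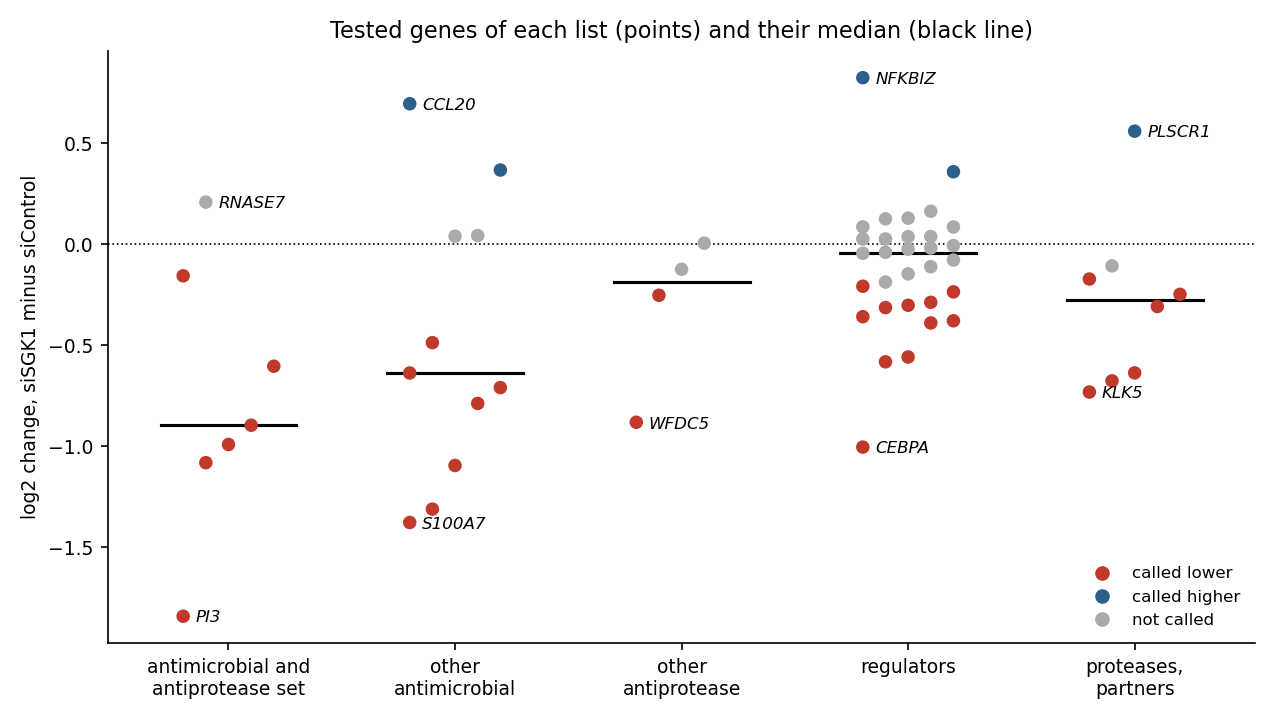
Log2 change (vertical axis, siSGK1 minus siControl) of the tested genes of the defence set and of 4 related lists (horizontal axis); red points were called lower, blue higher, grey were not called, and black lines are medians. The medians are −0.90, −0.64, −0.19, −0.05 and −0.28 from left to right, and CCL20, NFKBIZ and PLSCR1 stand on the other side of 0 from most of their lists.

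Myeloid cells also express LYZ, CAMP, LCN2 and SLPI, and their markers were scarce in both groups. Of 10 myeloid markers none reached a mean of 1 FPKM, and MPO, FCGR3B and TYROBP had no read. Their summed level was 0.361 to 0.485 FPKM in siControl and 0.433 to 0.527 FPKM in siSGK1. The 6 fibroblast markers summed to 4.70 to 5.25 and 4.87 to 5.72 FPKM, nearly all of it COL1A1 (log2 change 0.11, adjusted p = 0.25). COL1A1 was called higher when libraries were scaled to total reads (0.24, adjusted p = 0.017) or with TPM (0.30, adjusted p = 0.0054). The 7 markers of glandular endocervical cells summed to 10.8 to 10.9 FPKM in siControl and 13.1 to 13.5 FPKM in siSGK1. AGR2, a secretory cell protein, rose (log2 change 0.50, adjusted p = 3.46e-04), KRT7 rose by less (0.21, adjusted p = 0.029, and 0.061 to 0.081 in 4 of the fits without 1 library) and PAX8 was not called (−0.11, adjusted p = 0.18). PAX8 measured 2.94 FPKM in siControl and 2.70 in siSGK1, and its exons overlap those of PAX8-AS1 on the other strand, at 5.81 FPKM. Exons of the epithelial markers KRT8 and KRT18 also overlap each other, on opposite strands. MUC5B, MUC5AC and MUC6 had at most 44 reads each over the 6 libraries. Of the epithelial markers KRT14 had the largest fall, a log2 change of −1.36 (adjusted p = 9.28e-06), while EPCAM, CDH1 and TP63 had log2 changes between −0.006 and 0.01 and were not called. The part of these shifts in the results above was not tested.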

How the data were processed

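RNA-seq of 3 siControl and 3 siSGK1 libraries was used, grouped by the treatment named in the labels. The deposited values are FPKM for 58302 genes, 1 column per library. The submitters' processing notes name featureCounts 1.5.0-p3, HISAT2 2.0.5, bcl2fastq 2.19 and the build hg19. Of 58039 gene identifiers shared with GENCODE 29 (GRCh38) 97.4% had the same coordinates in the table, so positions are read as GRCh38. Deposited FPKM times gene length was a whole multiple of 1 step for 100% of values above 0 (tolerance 0.001), which gave the reads. Settings for strand and multi-mapping reads are not stated in the material used here.

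log2(FPKM + 0.5) was tested with limma 3.58.1 in R 4.3.3 (two-sided moderated test, variance trend on mean level, group as the only term), with Benjamini-Hochberg adjustment over 11945 genes with a mean of at least 1 FPKM. All adjusted p-values are from this test unless another setting is named, and a gene was called at adjusted p below 0.05. The pseudocount understates changes of low genes. The script was tested on simulated data. The p-values measure the spread between these cultures of 1 line. Named genes are the 10 genes, SGK1 and the 4 smallest p of each related list. The genes and lists were chosen with earlier results of these data known. Alternatives were other pseudocounts, filters, scalings, quantile normalization, voom on recovered reads, a replicate block and leaving out each library. Removal of the length trend, the chromosome 20 cluster and the short and abundant gene sets were chosen after values were seen. Figures used Python 3.11.15 with pandas 2.3.3 and matplotlib 3.10.9.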

Additional observations from a re-analysis of the deposited data

How the results depend on the processing

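PI3, SLPI, DEFB1, WFDC2 and LCN2 kept their direction and their call in all 15 or 16 other settings in which each was tested, with a highest adjusted p of 0.0027 (WFDC2, without the level filter). PI3 and WFDC2 could not be tested with a mean of at least 5 FPKM. The log2 change of PI3 ranged from −2.42 with voom on recovered reads to −1.50 with a pseudocount of 1. The 6 genes called lower became 5 in each fit without 1 library, and the genes called higher ranged from 0 to 1, the 1 being RNASE7, which was also called with total-read scaling and TPM scaling (1 each). ELF3 turned to 0.042 with TPM scaling. With total-read and TPM scaling ANOS1 turned to 0.0037 and 0.062 and PAX8 to 0.014 and 0.069, and the log2 change of SPINT2 ranged from −0.030 to 0.027 when 1 library was left out. The cause of these changes was not tested. Of the 4 related lists 31 genes were called, and 20 with a mean of at least 5 FPKM, where fewer genes were tested. The 11 regulators called lower became 6 there and 7 without siSGK1 replicate 4, and the 2 further antiprotease genes called lower became 4 with voom. All genes called numbered 4852, and from 3763 to 6815 in the other settings; voom on recovered reads called 6033.

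Replicate numbers were not shown to pair the libraries: the correlation of same-numbered deviations was 0.12, 0.01 and −0.10. With the replicate block 4560 genes were called, 5 of the 10 genes were lower and SGK1 stayed at −1.07. Of the 10 genes, 3 had at most 96 reads over all libraries, which limits what could be seen.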
